A study of Mus musculus with 2 samples.

Results

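The genes described here encode the translation initiation, elongation and termination factors, the cytoplasmic poly(A)-binding proteins and enzymes that act on these factors. They were found by name, as all probe sets whose single annotated gene symbol starts with Eif, Eef, Gspt or Pabpc followed by a digit, or is Etf1. The rule found 179 of the 45101 probe sets of the array and 68 of its 18193 named genes. It used no measured value.

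The samples were liver tissue of nude BALB/c mice, which lack a thymus. One group was taken on Day 3 following a 70% partial hepatectomy and the other on Day 0, which the labels call the control. Both groups share strain and tissue in the labels, which name partial hepatectomy for both and call Day 3 active regeneration. The labels give neither age nor sex nor whether a sample was 1 animal or a pool. Messenger RNA was measured on 1 Affymetrix mouse array per day. No value has a replicate and no test between the days was possible, so day, surgery and animal cannot be told apart.

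In eukaryotes the factor eIF2 brings the initiator tRNA to the small ribosomal subunit, the eIF4 factors bind the cap of the mRNA and unwind its start, and the large complex eIF3 joins these parts. Elongation factor eEF1A then delivers each aminoacyl-tRNA and eEF2 moves the ribosome along, until eRF1 and eRF3 release the finished protein. In liver, a tissue that secretes most plasma proteins, phosphorylation of eIF2 and of the eIF4E-binding proteins sets much of the rate. Array signals measure the mRNAs of these factors and show neither the proteins nor their phosphorylation.

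A floor of 68.3, the higher of both array medians, was passed by 61 of the 68 genes on at least 1 array. The strongest probe set of a gene by mean log2 signal stood for it and is called the main probe set. All ratios and folds are of signal at Day 3 over signal at Day 0, with signals under the floor set to the floor. At Day 3, 3 of the 61 genes had at least 2-fold higher signal and 0 had at least 2-fold lower signal, while 58 differed by less. Among all 12634 genes analysed, 12.9% were at least 2-fold higher and 5.62% at least 2-fold lower. The translation factors were mostly genes of strong signal, with 45 of the 61 in the tercile of genes with the highest mean log2 signal. In that tercile 5.60% of all genes were at least 2-fold higher and 7.34% at least 2-fold lower, against 1 and 0 of the 45 factors.

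At a threshold of 1.5-fold, 9 factor genes were higher and 4 lower, beside 24.0% and 14.2% of all genes. The median log2 ratio of the factors was 0.16 and that of all genes 0.08. Without probe sets marked as shared these medians were 0.02 and 0.07. The interquartile range ran from -0.11 to 0.41 for the factors and from -0.32 to 0.56 for all genes. The higher genes at 1.5-fold were Eif1a, Eif2d, Eif2b4, Eif2ak3, Eif3d, Eef1e1, Eef1akmt1, Eef2kmt and Gspt2. The lower ones were Eif5, Eif4b, Eif4a2 and Eif2ak1. Scaling the arrays to the hybridisation spikes in place of the deposited scaling moved the median of all genes by 0.28, to 0.36, and that of the factors to 0.45, with 6 of 61 factors at least 2-fold higher beside 19.6% of all genes under that scaling.

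**Figure D1:**
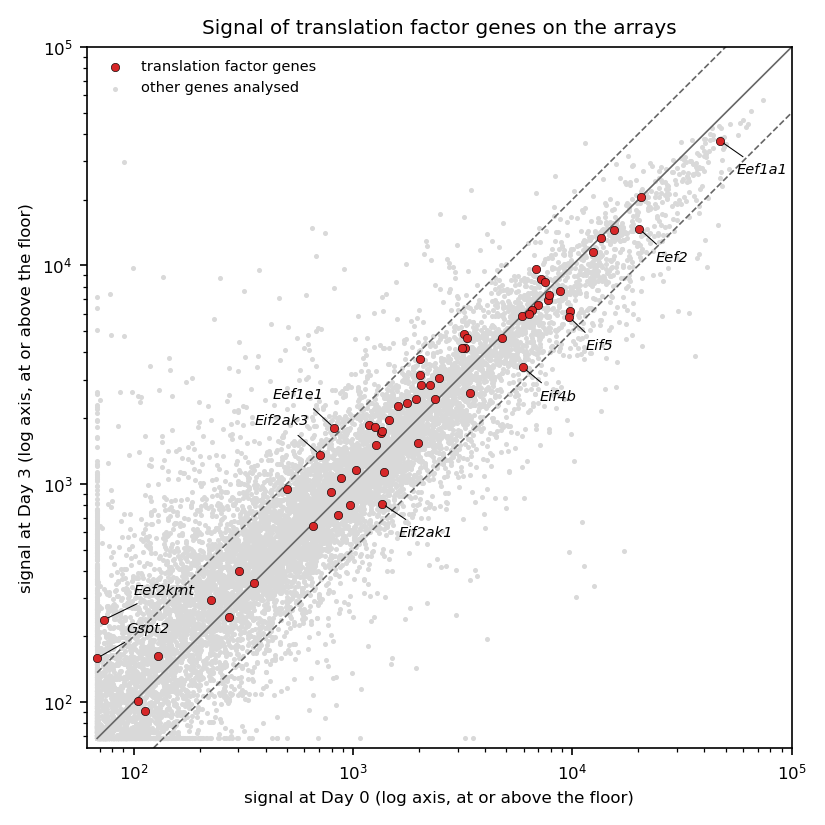
Signal at Day 3 (vertical, log axis) against signal at Day 0 (horizontal, log axis) for the main probe set of 61 translation factor genes (red) and the other genes analysed (grey), with values under the floor of 68.3 drawn at the floor. The solid line marks equal signals and the dashed lines a 2-fold difference, and 3 red points lie above the upper dashed line while 0 lie below the lower one.

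**Figure D2:**
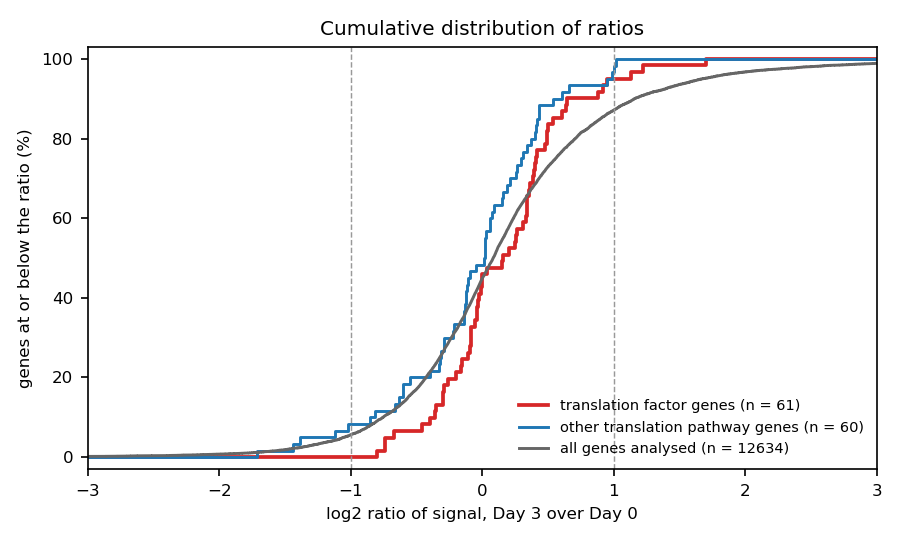
Cumulative share of genes (vertical, percent) by log2 ratio of Day 3 over Day 0 (horizontal) for 61 translation factor genes, 60 other genes of the translation pathway and all 12634 genes analysed. The curve of the factors is steeper than that of all genes, with an interquartile range from -0.11 to 0.41 against -0.32 to 0.56.

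Markers of the labelled tissue were present. All 8 hepatocyte markers, among them Alb, were above the floor on both arrays, with a summed signal of 267701 at Day 3 and 350524 at Day 0. For 6 genes of proliferating cells the sums were 26700 at Day 3 and 1003 at Day 0, and all 6 were at least 2-fold higher. The sum of 6 macrophage and Kupffer cell markers was 16195 at Day 3 and 5343 at Day 0, with 4 at least 2-fold higher. Sums were also higher at Day 3 for the markers of cholangiocytes (1042 at Day 3 and 275 at Day 0), stellate cells (17936 at Day 3 and 9189 at Day 0) and neutrophils (1241 at Day 3 and 276 at Day 0). Of these lists, 3 of 4, 2 of 5 and 2 of 5 markers were at least 2-fold higher. The median log2 ratio of the neutrophil markers was 0, with S100a8 and S100a9 higher and Ngp lower. Sums were lower at Day 3 for endothelium (3242 at Day 3 and 3733 at Day 0, although the median log2 ratio of its 5 markers was 0.37), erythroid cells (2935 at Day 3 and 9266 at Day 0) and exocrine pancreas (1920 at Day 3 and 5248 at Day 0). For exocrine pancreas 1 of 4 markers, Cela1, was above the floor. Skeletal muscle markers summed to 208 at Day 3 and 254 at Day 0, and those of B and T cells, with 0 of 4 above the floor at Day 3 and 1 of 4 at Day 0, to 89.9 at Day 3 and 203 at Day 0. In unsorted liver tissue, fewer cells of a type and less RNA per cell cannot be told apart, and the part of cell composition in the ratios below was not tested. For the poly-A spikes, control RNAs that go through labelling with the sample, the signal of the 3' end over that of the 5' end was 1.32 to 2.90 times as large at Day 3 as at Day 0 (8 of 8 pairs). These pairs are repeated measures of the dap, lys, phe and thr RNAs and not independent controls. For another bacterial control, TrpnX, the change was 0.135. The same change was above 1 for 3 of 5 mouse control transcripts, at 1.91 for Gapdh, 2.09 for beta-actin and 22.2 for the transferrin receptor, against 0.988 for 18S RNA and 0.594 for pyruvate carboxylase. The place of each factor's probe set along its mRNA was not analysed, and the part of this shift in the ratios was not tested.

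The spread between probe sets of 1 gene gives the only error of a ratio here, and it does not cover animals. It was an SD of 0.30 on the log2 scale per probe set for the 36 factor genes with at least 2 probe sets above the floor on both arrays, and 0.44 for all 4380 such genes, each from the 2 strongest probe sets. Of the 40 factor genes with at least 2 probe sets above the floor on at least 1 array, 12 had all their ratios above 1, 9 had all below 1 and 19 had ratios on both sides. The probe sets of 6 genes (Eif4a1, Eif4h, Eif4ebp2, Eif2d, Gspt1 and Eef1akmt1) differed by at least 2-fold in their ratios. The other 21 genes had 1 probe set above the floor, so their ratios have no such check.

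**Figure D3:**
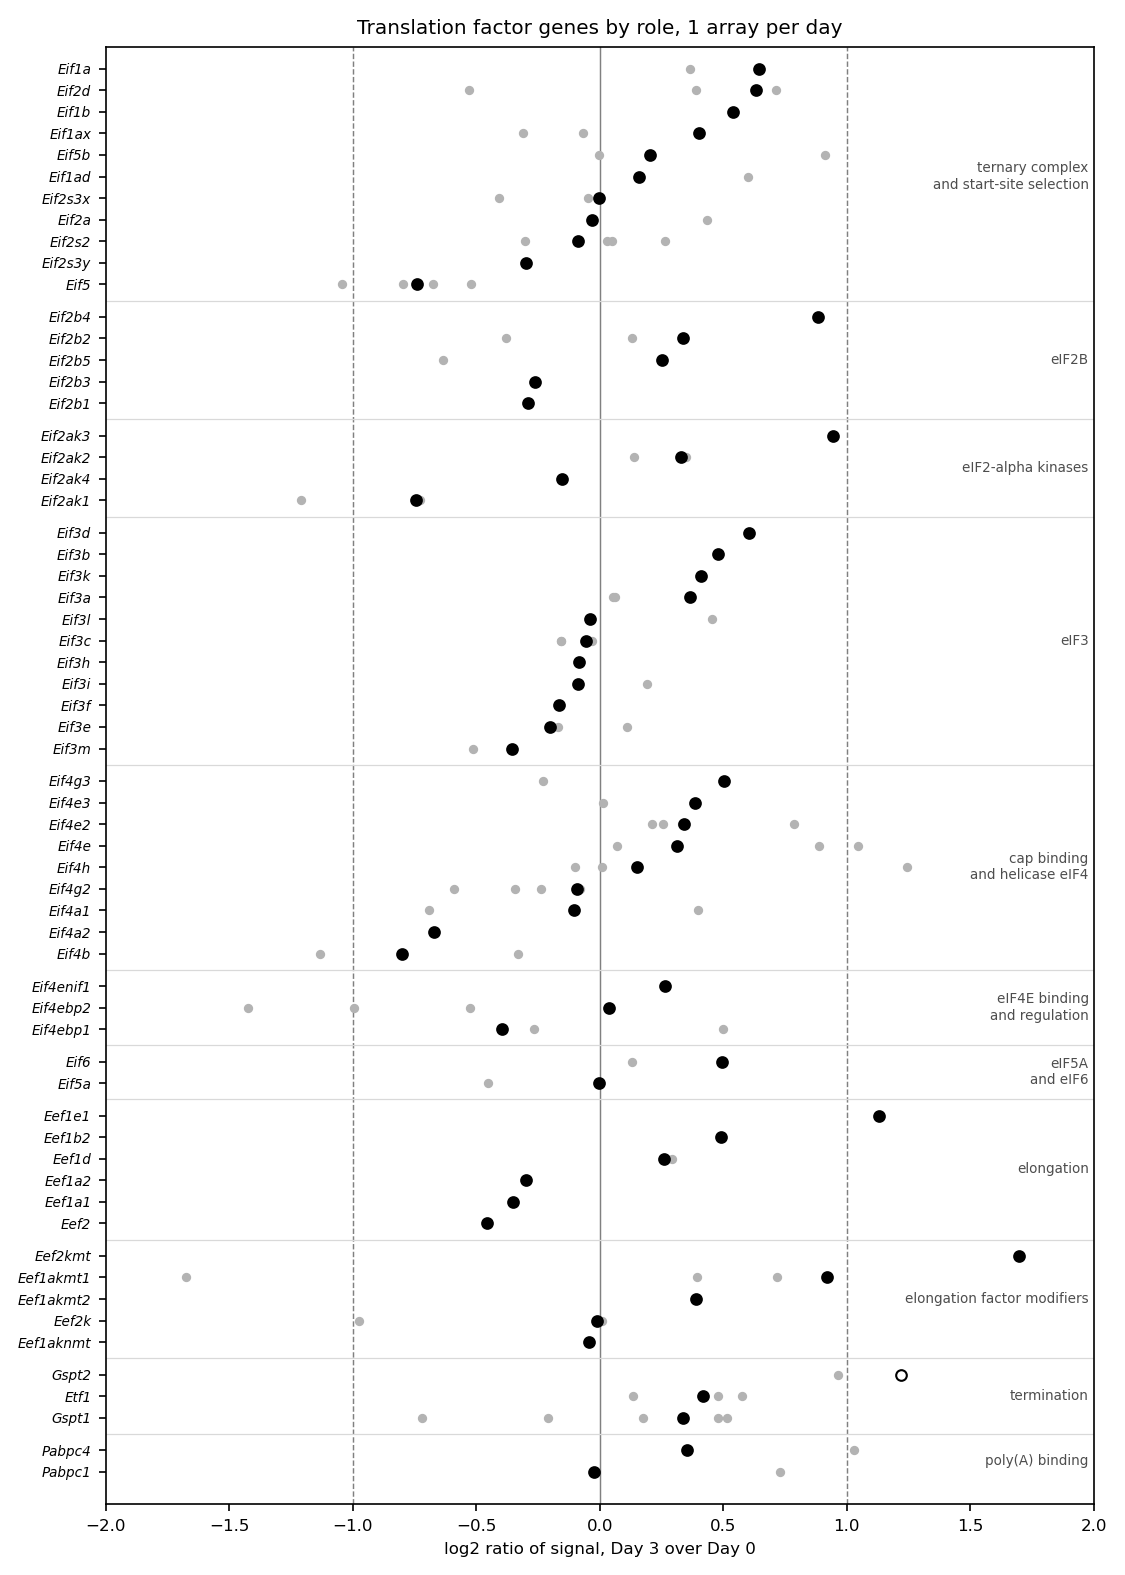
Log2 ratio of signal, Day 3 over Day 0 (horizontal), for 61 translation factor genes grouped by role (vertical). Black points are the main probe set of a gene, the open point is a main probe set under the floor at Day 0 and therefore a lower bound, grey points are other probe sets above the floor, and dashed lines mark 2-fold. Eef2kmt, Gspt2 and Eef1e1 lie beyond the right dashed line, and 0 main probe sets lie beyond the left one.

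Among the 11 genes placed by symbol under start-site selection and the complex of eIF2, GTP and initiator tRNA, 0 passed 2-fold. The median log2 ratio was 0.16, which is the ratio of Eif1ad, a gene placed here by its symbol alone. Eif5, which encodes the factor that triggers GTP hydrolysis by eIF2 at the start codon, had signals of 5797 at Day 3 and 9693 at Day 0. It was 1.67-fold lower on this probe set. Its second probe set by signal had 5801 at Day 3 and 9272 at Day 0, the next 2417 at Day 3 and 3469 at Day 0, another 1523 at Day 3 and 3142 at Day 0, and the weakest 70.7 at Day 3 and 123 at Day 0. All 5 probe sets were lower at Day 3, with a mean log2 ratio of -0.76 ± 0.19 (SD over n = 5 probe sets), and 1 of them, at -1.05, passed 2-fold. In contrast Eif1a, one of the genes for eIF1A, which helps the scanning ribosome find the start codon, had 1853 at Day 3 and 1186 at Day 0. It was 1.56-fold higher, and its other probe set had a log2 ratio of 0.37. Eif1ax, the X-linked gene for eIF1A, had 2345 at Day 3 and 1774 at Day 0, with its 3 probe sets between -0.31 and 0.40. Eif1b, a homologue of the scanning factor eIF1, had 1824 at Day 3 and 1256 at Day 0.

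The subunits of eIF2 itself had ratios near 1. Eif2s2, the beta subunit, had 6605 at Day 3 and 7012 at Day 0, and its 5 probe sets had a mean log2 ratio of -0.0092 ± 0.21 (SD). The gamma subunit is encoded on both sex chromosomes in mice. The X copy Eif2s3x had 5871 at Day 3 and 5881 at Day 0, and the Y copy Eif2s3y had 1127 at Day 3 and 1386 at Day 0, so signal of a Y-linked gene was present on both arrays. The copies are close in sequence and their probe sets may share target. The alpha subunit gene Eif2s1 was not analysed here. Eif2d, a factor that can deliver initiator tRNA without GTP, was 1.55-fold higher, with 3149 at Day 3 and 2029 at Day 0. Of the other probe sets of Eif2d, 1 had 1767 at Day 3 and 1076 at Day 0, and the weakest went the other way with 97.6 at Day 3 and 141 at Day 0. Eif5b, the GTPase that joins the ribosomal subunits, had 916 at Day 3 and 796 at Day 0. Eif2a and Eif1ad had log2 ratios of -0.03 and 0.16.

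eIF2B recharges eIF2 with GTP and is the enzyme that phosphorylated eIF2 blocks. Its 5 subunit genes had a median log2 ratio of 0.25. Eif2b4, the delta subunit, stood highest with 3732 at Day 3 and 2023 at Day 0, 1.84-fold higher on its only probe set. Eif2b2, the beta subunit, had 1703 at Day 3 and 1347 at Day 0, with its 3 probe sets between -0.38 and 0.34. Eif2b5, the catalytic epsilon subunit, had 1510 at Day 3 and 1269 at Day 0 on its main probe set, while another had 29.9 at Day 3 and 106 at Day 0. Eif2b1, the alpha subunit, had 796 at Day 3 and 975 at Day 0, and Eif2b3, the gamma subunit, 716 at Day 3 and 858 at Day 0. The subunits lay on both sides of 1, while scaling to the spikes turned the sign of Eif2b3 and the mean over probe sets that of Eif2b5.

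The 4 kinases that phosphorylate the alpha subunit of eIF2 had log2 ratios from -0.74 to 0.94, with a median of 0.09 that was -0.16 after quantile normalisation and -0.08 after loess. Eif2ak3, which encodes PERK, the kinase of endoplasmic reticulum stress, had 1360 at Day 3 and 707 at Day 0 and was 1.92-fold higher. It was the gene nearest below the 2-fold threshold and had 1 probe set above the floor. Eif2ak1, which encodes HRI, the kinase of heme shortage, had 812 at Day 3 and 1358 at Day 0 and was 1.67-fold lower. Its other probe sets above the floor had 290 at Day 3 and 669 at Day 0, and 165 at Day 3 and 274 at Day 0. All 3 were lower at Day 3, with a mean log2 ratio of -0.89 ± 0.27 (SD over n = 3 probe sets), and 1 passed 2-fold. HRI is most abundant in red cell precursors. Beside its ratio, the erythroid gene Alas2 had 2783 at Day 3 and 8932 at Day 0 and Klf1 had 47.6 at Day 3 and 274 at Day 0. Slc4a1 had 99.2 at Day 3 and 50.2 at Day 0, Rhd was under the floor on both arrays, and the part of these cells in the ratio of Eif2ak1 was not tested. Eif2ak2, which encodes PKR, the kinase of double-stranded RNA, had 162 at Day 3 and 129 at Day 0, with its 3 probe sets between 0.14 and 0.35. Eif2ak4, which encodes GCN2, the kinase of amino acid shortage, had 244 at Day 3 and 271 at Day 0.

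Of the 11 measured genes of eIF3, 4 had a ratio above 1 and 7 below, with a median log2 ratio of -0.05 that turned positive with quantile normalisation (0.05), loess (0.06) and spike scaling (0.24). The log2 ratios ran from -0.36 for Eif3m to 0.60 for Eif3d. Eif3d, a subunit that can bind the cap of some mRNAs, had 4872 at Day 3 and 3205 at Day 0 and was 1.52-fold higher. Eif3b, a scaffold subunit of the core, had 2841 at Day 3 and 2040 at Day 0, and Eif3k, a peripheral subunit, 4189 at Day 3 and 3149 at Day 0. Eif3a, the largest subunit, had 4177 at Day 3 and 3242 at Day 0, with other probe sets at log2 ratios of 0.05 and 0.06. The subunits Eif3e, Eif3f, Eif3h and Eif3m lay below 1. Eif3e had 7639 at Day 3 and 8780 at Day 0, Eif3f 6925 at Day 3 and 7768 at Day 0, Eif3h 5972 at Day 3 and 6323 at Day 0, and Eif3m 1545 at Day 3 and 1978 at Day 0. Eif3i, Eif3c and Eif3l differed by at most 1.06-fold, with Eif3i at 7352 at Day 3 and 7816 at Day 0. With the deposited scaling, genes of 1 complex therefore had ratios both above and below 1, all within 2-fold. Eif3c, Eif3h, Eif3i and Eif3l turned above 1 with quantile normalisation, loess and spike scaling, and Eif3e and Eif3f with spike scaling. Eif3m stayed below 1 with each of these scalings.

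With the deposited scaling, the cap-binding and helicase factors held the lowest ratio among the main probe sets, that of Eif4b. Eif2ak1 was lower than Eif4b with quantile normalisation (log2 ratios of -0.84 and -0.72) and loess (-0.79 and -0.71). The same held for the mean over probe sets (-0.89 and -0.76). Eif4b, which encodes a cofactor that stimulates the helicase, had 3416 at Day 3 and 5959 at Day 0 and was 1.74-fold lower. Its other probe sets had 2287 at Day 3 and 5011 at Day 0, which is beyond 2-fold, and 688 at Day 3 and 866 at Day 0. All 3 were lower, with a mean log2 ratio of -0.76 ± 0.40 (SD over n = 3 probe sets). Eif4a2, a paralogue of the helicase eIF4A, had 6164 at Day 3 and 9816 at Day 0 and was 1.59-fold lower on its only probe set. Eif4a1, the other paralogue, had 11546 at Day 3 and 12425 at Day 0 on its main probe set. The probe sets of Eif4a1 disagreed, since 1 had 4978 at Day 3 and 8049 at Day 0 and another 7435 at Day 3 and 5638 at Day 0, so a difference between the paralogues was not resolved. The single probe set of Eif4a3, a paralogue that works in the exon junction complex, was under the floor on both arrays.

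Eif4e, which encodes the cap-binding protein, had 3059 at Day 3 and 2464 at Day 0 on its main probe set, 1.24-fold higher. Another probe set had 1530 at Day 3 and 742 at Day 0, a log2 ratio of 1.04, and the others had 240 at Day 3 and 130 at Day 0, and 111 at Day 3 and 105 at Day 0. All 4 were higher at Day 3, with a mean of 0.58 ± 0.46 (SD over n = 4 probe sets). Its homologues were also higher. Eif4e2, a cap-binding repressor, had 2454 at Day 3 and 1938 at Day 0 with 5 of 5 probe sets higher, and Eif4e3 had 294 at Day 3 and 225 at Day 0. Eif4g3, a scaffold that links eIF4E to the helicase, had 2274 at Day 3 and 1604 at Day 0, with another probe set at -0.23. Eif4g2, a scaffold without an eIF4E site that serves cap-independent initiation, had 14500 at Day 3 and 15465 at Day 0, with its 5 probe sets between -0.59 and -0.08. Eif4h, a helicase cofactor, had 8361 at Day 3 and 7536 at Day 0, while its weakest probe set above the floor had 266 at Day 3 and 112 at Day 0. Eif4g1 was not analysed here.

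**Figure D4:**
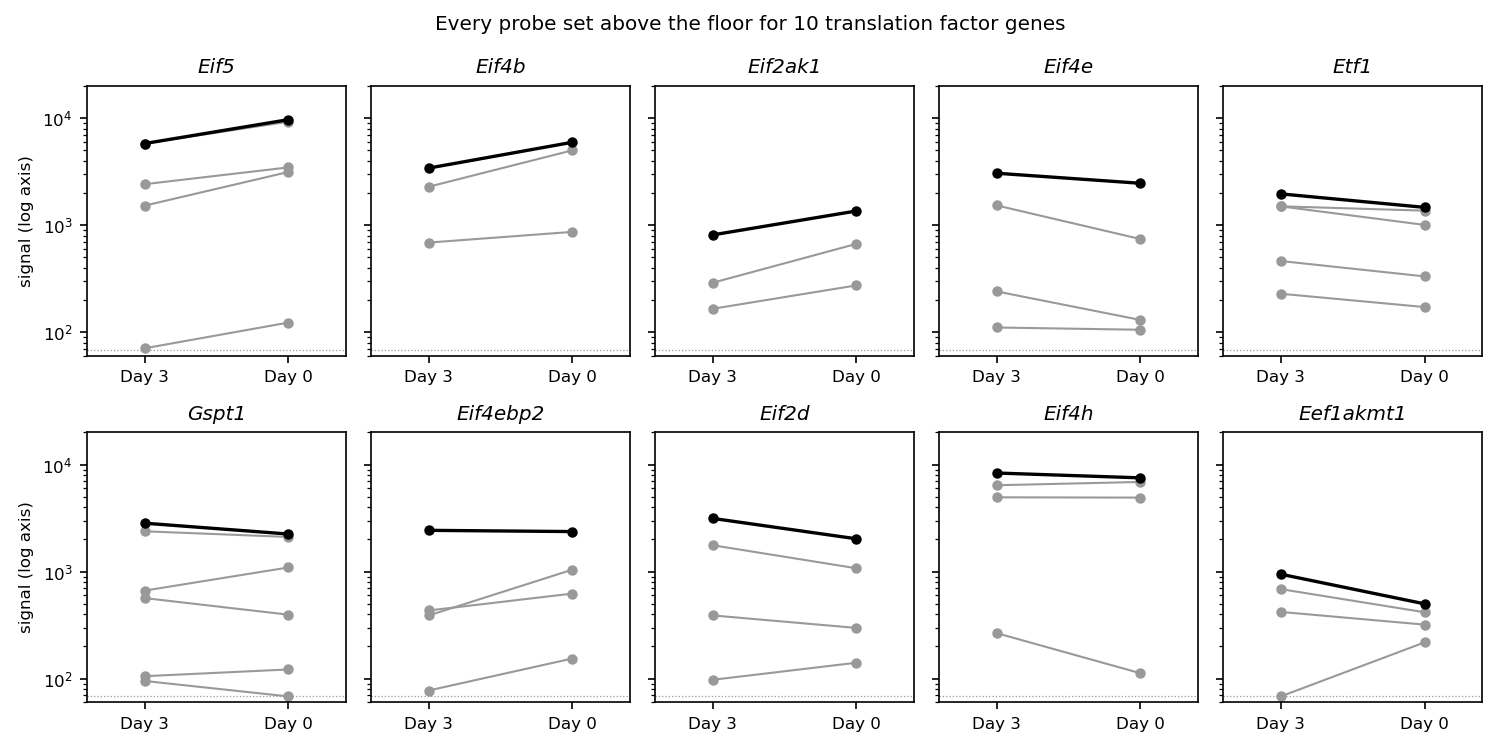
Signal (vertical, log axis) at Day 3 (left) and Day 0 (right) of each probe set above the floor for 10 translation factor genes, with the main probe set in black, other probe sets in grey and the floor of 68.3 as a dotted line. All 5 lines of Eif5, 3 of Eif4b and 3 of Eif2ak1 are lower at Day 3, all 4 of Eif4e and 5 of Etf1 are higher, and those of the other 5 genes point both ways.

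The proteins that bind eIF4E and keep it from the scaffold are encoded by the Eif4ebp genes. Eif4ebp1 had 2610 at Day 3 and 3436 at Day 0 and was 1.32-fold lower, a second probe set had 2097 at Day 3 and 2522 at Day 0, and the weakest had 96.5 at Day 3 and was under the floor at Day 0. Eif4ebp2 had 2435 at Day 3 and 2371 at Day 0 on its main probe set. Its other probe sets above the floor were all lower at Day 3, with 390 at Day 3 and 1045 at Day 0, 434 at Day 3 and 624 at Day 0, and 77.5 at Day 3 and 154 at Day 0. Their log2 ratios were -1.42, -0.52 and -0.99, so the value of this gene turned on which probe set was read. Eif4enif1, which shuttles eIF4E into the nucleus, had 1064 at Day 3 and 887 at Day 0. Eif4ebp3 was not analysed here.

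Promoter windows of these genes, 250 bases before to 50 after the annotated start, were read from RefSeq on build GRCm38.p6, which held 51 of the 68 genes. The E-box CACGTG, which reads the same on both strands and is the letters bound by MYC and related factors, stood in the windows of 12 of the 51 (23.5%), against 8.09% of all 27025 genes with a window. A gene counted if any of its windows held the E-box. The 27025 genes were not limited to measured genes or matched to the factors in signal, number of windows or base content, so the shares are a description only. Some of these sites are shown, with the E-box in capitals, because Eif4e is a gene known from mammalian cells to be driven through E-boxes by MYC.
Eif4e, chr3:138527028-138527057, plus strand, position -228: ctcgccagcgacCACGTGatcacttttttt
Eif4e, chr3:138527192-138527221, plus strand, position -64: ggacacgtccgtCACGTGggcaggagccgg
Eif4a1, chr11:69672595-69672624, minus strand, position -189: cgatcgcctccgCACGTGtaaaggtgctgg
Eef2, chr10:81176576-81176605, plus strand, position -43: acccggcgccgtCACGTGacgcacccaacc
Eif3k, chr7:28981915-28981944, minus strand, position -44: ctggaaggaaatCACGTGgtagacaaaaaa
Positions give the first base of the E-box relative to the start. With the deposited scaling, the 11 genes with an E-box that were above the floor had a median log2 ratio of -0.0015. Their range was from -0.46 for Eef2 to 0.54 for Eif1b, and the 36 without one had a median of 0.23. The median of the 11 is the ratio of Eif5a, which was 0.26 with quantile normalisation, 0.25 with loess and 0.29 with spike scaling. The median of the 36 was not taken under these scalings, and spike scaling shifts nearly all genes of both groups alike. Whether the difference between the medians depends on the scaling was not tested, and nothing is read from it. A match of letters is a description of the window and not a bound site.

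Many mRNAs of the translation machinery begin with a C followed by a run of pyrimidines, the terminal oligopyrimidine tract that ties their translation to mTOR signalling. A C at the annotated first base followed by at least 4 pyrimidines was found for 2 of the 51 genes (3.92%), Eif3f and Eif2s3x, against 3.01% of all genes with a window. Their starts are shown beside those of Eef1a1 and Eef2, which are known in mammals as mRNAs of this class, with the unbroken run of pyrimidines from the annotated first base in capitals.
Eif3f, chr7:108934405-108934429, plus strand: tctaggctctCTCTCTTTCTCggca
Eif2s3x, chrX:94212637-94212661, minus strand: gagcattttcCTTTTCTCTCCgagc
Eef1a1, chr9:78481710-78481734, minus strand: ctccgccctcTTCCCgagggtgggg
Eef2, chr10:81176621-81176645, plus strand: aaggccgggcgttgacgtcagcggt
The first 10 bases of each line lie before the annotated start. The annotated first base is a T for Eef1a1 and a G for Eef2, so the rule missed both of these known mRNAs. The share it found therefore does not show how common such mRNAs are among the factors. The log2 ratios of these 4 genes were -0.17 for Eif3f, -0.0025 for Eif2s3x, -0.35 for Eef1a1 and -0.46 for Eef2, so 0 of them was higher at Day 3 with the deposited scaling. Scaling to the spikes turned the sign of Eif3f and Eif2s3x, quantile normalisation that of Eif2s3x and Eef1a1, and loess that of Eif2s3x.

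The 6 elongation factor genes lay on both sides of 1, with a median log2 ratio of -0.02 that was 0.21 with quantile normalisation, 0.20 with loess and 0.27 with spike scaling. Eef1a1, which encodes the main form of eEF1A, had 37130 at Day 3 and 47325 at Day 0 and was 1.27-fold lower on its only probe set. Its ratio was 0.01 on the log2 scale after quantile normalisation, and the gene has many processed copies in the genome that a probe set could share. Eef2 had 14709 at Day 3 and 20181 at Day 0 and was 1.37-fold lower, and it stayed below 1 in all 10 alternatives. The exchange factors that recharge eEF1A with GTP had ratios above 1. Eef1b2 had 9640 at Day 3 and 6858 at Day 0, 1.41-fold higher, and Eef1d had 8620 at Day 3 and 7201 at Day 0, with a second probe set of 3127 at Day 3 and 2554 at Day 0. Eef1a2, the form of eEF1A used in muscle and neurons, had 91.3 at Day 3 and 112 at Day 0, close to the floor of 68.3. Eef1g was not analysed here.

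Eef1e1 was 2.19-fold higher, with 1801 at Day 3 and 822 at Day 0. Despite its name this gene encodes AIMP3, a scaffold of the complex of aminoacyl-tRNA synthetases. Its single probe set kept a log2 ratio of 1.05 to 1.42 over 10 alternatives. Signal of proliferating-cell genes was higher at Day 3 on the same arrays (26700 at Day 3 and 1003 at Day 0 for the sum of 6 genes), and its part in this ratio was not tested.

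Enzymes that modify elongation factors held the highest ratio of all. Eef2kmt, which encodes a lysine methyltransferase of eEF2, had 239 at Day 3 and 73.5 at Day 0 and was 3.25-fold higher on its only probe set. The Day 0 signal lay just above the floor, and raising the floor to the 75th percentile left the gene out. The rank of Eef2kmt depended on the floor, since the ratio of the termination factor gene Gspt2 was a lower bound. Lowering the floor to the 25th percentile gave log2 ratios of 2.08 for Gspt2 and 1.70 for Eef2kmt. Adding 16 to each signal in place of a floor gave 1.65 for Gspt2 and 1.51 for Eef2kmt. In the other alternatives that held both genes, Eef2kmt stayed higher. Eef1akmt1, a lysine methyltransferase of eEF1A, had 947 at Day 3 and 501 at Day 0 and was 1.89-fold higher. Further probe sets of Eef1akmt1 had 688 at Day 3 and 418 at Day 0, and 421 at Day 3 and 320 at Day 0, while the weakest had 36.9 at Day 3 and 218 at Day 0, the opposite direction. Eef1akmt2 had 399 at Day 3 and 304 at Day 0. Eef2k, the kinase that phosphorylates eEF2 and slows elongation, had 350 at Day 3 and 353 at Day 0, with its 3 probe sets between -0.98 and 0.01. Eef1aknmt, a methyltransferase of the N terminus and a lysine of eEF1A, had 102 at Day 3 and 105 at Day 0.

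All 3 termination factor genes had main ratios above 1 in each alternative in which they were analysed, with a median of 0.42 that was 0.38 to 0.71 under the other 4 scalings. Etf1, which encodes eRF1, the protein that reads stop codons, had 1962 at Day 3 and 1468 at Day 0, 1.34-fold higher. Its 5 probe sets above the floor were all higher, with a mean log2 ratio of 0.40 ± 0.16 (SD over n = 5 probe sets). Gspt1, which encodes the GTPase eRF3a, had 2841 at Day 3 and 2249 at Day 0, with its 6 probe sets between -0.72 and 0.51. Gspt2, an intronless paralogue that encodes eRF3b, had 159 at Day 3 and was under the floor at Day 0, with a measured signal of 4.85. It was at least 2.33-fold higher. Its other probe set had 133 at Day 3 and 31.6 at Day 0, at least 1.95-fold higher, so both probe sets of Gspt2 were above the floor at Day 3 only.

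The poly(A)-binding proteins join the tail of an mRNA to the factors at its cap. Pabpc1, the main cytoplasmic form, had 13308 at Day 3 and 13526 at Day 0 on its main probe set and 398 at Day 3 and 240 at Day 0 on the other. Pabpc4, a form that is induced in activated cells, had 1739 at Day 3 and 1361 at Day 0, and its other probe set had 1632 at Day 3 and 799 at Day 0, a log2 ratio of 1.03. The genes Pabpc1l, Pabpc2, Pabpc4l, Pabpc5 and Pabpc6 were under the floor on both arrays, and several of these are known as forms of germ cells. Eif5a, which encodes the factor that carries hypusine and frees stalled ribosomes, had 20606 at Day 3 and 20628 at Day 0, with a second probe set of 4184 at Day 3 and 5731 at Day 0. Eif5a2, its paralogue, was under the floor on both arrays. Eif6, which keeps free large ribosomal subunits apart from small ones and takes part in making them, had 4650 at Day 3 and 3301 at Day 0 and was 1.41-fold higher, with another probe set of 74.7 at Day 3 that was under the floor at Day 0.

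Counted by probe set, 6 of 144 were at least 2-fold higher (background 11.2%) and 5 at least 2-fold lower (background 6.07%). The higher ones belonged to Eef2kmt, Eef1e1, Gspt2, Eif4e, Eif4h and Pabpc4, and the lower ones to Eif5, Eif4b, Eif2ak1, Eif4ebp2 and Eef1akmt1. Of these 11 genes, 3 passed on the main probe set.

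The regulators around the factors were described from a list of 63 genes outside the rule, of which 60 were above the floor. Among them 2 were at least 2-fold higher and 5 at least 2-fold lower, beside 12.9% and 5.62% of all genes, with a median log2 ratio of 0.01. Of the 13 analysed genes that relay mTORC1 and MAPK signals to initiation, 0 were at least 2-fold higher and 4 at least 2-fold lower, with a median log2 ratio of -0.32. The list was made with earlier results of these arrays known, and nothing particular to it is read from these counts. Deptor, a protein that inhibits mTOR, had 2267 at Day 3 and 7457 at Day 0 and was 3.29-fold lower, with its 5 probe sets between -2.36 and -1.72. Tsc2, a brake on mTORC1, had 237 at Day 3 and 642 at Day 0, 2.72-fold lower. Pdcd4, a protein that binds and blocks the helicase eIF4A, had 2575 at Day 3 and 6734 at Day 0, 2.61-fold lower. These 3 genes encode inhibitors of the pathway, while Rps6kb2, a kinase for ribosomal protein S6, was also lower, with 204 at Day 3 and 415 at Day 0. Mtor itself had 2254 at Day 3 and 1670 at Day 0, and Rptor, its partner in mTORC1, 731 at Day 3 and 688 at Day 0. Tsc2, Pdcd4 and Rps6kb2 each rested on 1 probe set.

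Around eIF2, the genes for the phosphatase subunits that reverse its phosphorylation had ratios below 1, with 473 at Day 3 and 595 at Day 0 for Ppp1r15a and 5069 at Day 3 and 6694 at Day 0 for Ppp1r15b. Impact, an inhibitor of GCN2, had 1070 at Day 3 and 529 at Day 0, 2.02-fold higher, with another probe set at 0.15. Dph2, an enzyme that makes the diphthamide of eEF2, had 137 at Day 3 and was under the floor at Day 0, or more than 2-fold higher. The hypusine enzymes of eIF5A, Dhps and Dohh, were 1.45-fold and 1.19-fold higher, with another probe set of Dhps at a log2 ratio of -0.21. Among ribosome recycling and rescue factors 0 of 7 passed 2-fold, with Pelo the highest at 686 at Day 3 and 355 at Day 0. Of 9 mitochondrial counterparts 1 was 2-fold lower, Guf1, a mitochondrial elongation GTPase, which was at least 2.17-fold lower with 148 at Day 0 and a signal under the floor at Day 3. Tufm, the mitochondrial elongation factor Tu, had 1499 at Day 3 and 1437 at Day 0. Partners of the poly(A)-binding proteins passed 2-fold in 0 of 6, and so did 0 of the 8 other genes of the list, where the helicase gene Dhx29 had 493 at Day 3 and 249 at Day 0.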

How the data were processed

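Each deposited intensity value, linear and 1 per probe set, was made by the authors with GCOS and MAS5, per the submitters' processing notes, whose versions the sources used here do not give. The trimmed mean was 499.8 at Day 3 and 499.8 at Day 0 without the top and bottom 2%. Symbols came from the array annotation, and the Entrez IDs of all 68 genes matched the RefSeq table of GRCm38.p6. Signals were used as deposited and floored at the higher array median, log2 was taken, and a probe set needed a signal over the floor on at least 1 array. The number of arrays limits the precision. The genes, the lists and the naming rule (role extremes, 2-fold differences, disagreeing probe sets and a fixed list) were chosen with earlier results of these arrays known. Role classes followed the symbol. Alternatives were other scalings, floors, thresholds and probe set choices. The steps were tested on simulated data. Python 3.11.15, pandas 2.3.3, numpy 2.4.6 and statsmodels 0.14.6 (loess, fraction 0.3) were used.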

Additional observations from a re-analysis of the deposited data

How the results depend on the processing

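With 3 genes at least 2-fold higher, 0 at least 2-fold lower and a median log2 ratio of 0.16 under the deposited scaling, 12 alternatives were run. Scaling to the hybridisation spikes gave 6 higher genes (Eif2ak3, Eif2b4 and Eef1akmt1 besides the same 3) and a median of 0.45, beside 2401 higher genes (19.6%) among all genes. The floor at the 25th percentile gave 1 lower gene (Pabpc1l) and a median of 0.038 over 65 genes. Of all genes 11.2% were then lower, with a median of 0.052. The floor at the 75th percentile left 52 genes and gave 1 higher gene, Eef1e1, since Eef2kmt and Gspt2 were then under the floor. Of all genes 7.47% were then higher. Without probe sets marked as shared there were 4 higher genes (Eif4h besides the same 3) and a median of 0.023 over 48 genes. Of all genes 12.5% were then higher, with a median of 0.073. Counting 144 probe sets gave 6 higher, 5 lower and a median of 0.044, beside 11.2%, 6.07% and 0.055 for all probe sets. A threshold of 1.5-fold gave 9 higher and 4 lower genes, beside 24.0% and 14.2% of all genes. The median of the factors was thus below the background with the 25th percentile floor, without shared probe sets and by probe set. Median centring, quantile normalisation, loess, no floor with 16 added and the mean over probe sets kept the same 3 higher genes and 0 lower ones, and asking for signals over the floor at both days left 2 higher genes, since Gspt2 was dropped. Under these settings 10.2% to 14.3% of all genes were higher and 5.18% to 8.07% lower. Of 587 values of single genes under 10 alternatives, 8 moved by more than the SD between probe sets over all genes (0.44) and 21 by more than that of the factors (0.30), among them Eif2d at -0.53 and Eif4h at 1.25 without shared probe sets and Eif4ebp2 at -0.73 with the mean over probe sets. These counts leave out spike scaling, whose shift of each factor lay below both SDs but turned the sign of 17 of the 61 factors. Quantile normalisation turned the sign of 11 and loess that of 10. Eif5 ranged from -0.76 to -0.45, Eif4b from -0.82 to -0.51 and Eif2ak1 from -0.89 to -0.45. Among all genes the count of at least 2-fold lower genes was 710, with 380 after spike scaling, 1834 and 406 with the floor at the 25th and 75th percentile, and the count of higher genes was 1625, with 574 at the 75th. No paired analysis was possible because each day had 1 array, and no array could be left out for the same reason. Weak signals, such as those of Eef2kmt, Gspt2 and Eef1a2 near the floor, limit what their ratios show.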
